A study of Mus musculus with 2 samples.

Results

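The mevalonate pathway builds isoprenoids from acetyl-CoA. The 9 genes described here encode enzymes of that route as far as squalene, the precursor from which sterols are made: Acat2, Hmgcs1, Mvk, Pmvk, Mvd, Idi1, Fdps, Ggps1 and Fdft1. They were taken by symbol from a table of 50608 rows, where each has 1 row. Levels were read in 2 RNA-seq libraries of cells given as mouse peritoneal macrophages, the phagocytes of the abdominal cavity. In 1 library the cells had been given DMSO, the solvent, and in the other GW3965, a synthetic compound that activates the liver X receptors (LXRs), nuclear receptors of oxidised cholesterol. All cells were of strain C57BL6J, from males and females pooled, with the developmental stage labelled E15.5. No source used here gives the dose or the time of treatment. The column read as GW3965 carries a name that matches its sample only in part, so every statement on GW3965 depends on that reading. Each group is 1 library, so no difference has a replicate check and the treatment could not be tested.

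In the pathway, Acat2 condenses acetyl-CoA to acetoacetyl-CoA in the cytosol and Hmgcs1 adds a further acetyl unit to give HMG-CoA. After reduction to mevalonate, the kinases Mvk and Pmvk and the decarboxylase Mvd make isopentenyl diphosphate, which Idi1 turns into its isomer. Fdps joins such units to farnesyl diphosphate, the branch point from which Fdft1 makes squalene for sterols and Ggps1 makes geranylgeranyl diphosphate for the lipid anchors of proteins. The transcription factor SREBP2, encoded by Srebf2, is known to activate genes of this route when sterols in the endoplasmic reticulum are low, whereas Srebf1 is a known LXR target that favours fatty acid synthesis. Both SREBPs bind sterol elements in promoters together with the CCAAT-binding factor NF-Y.

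Promoter windows of 4 members are shown because these genes mark the extremes of the data: Hmgcs1 had the highest level, Mvk the lowest ratio between the libraries, and Pmvk and Acat2 the highest ratios. Each is the stretch of 200 bases just upstream of the outermost start annotated in GENCODE M21 or RefSeq, from RefSeq sequence on GRCm38.p6. Hmgcs1 is at chr13:119690151-119690350 on the plus strand and Mvk at chr5:114444064-114444263 on the plus strand. Pmvk is at chr3:89454341-89454540 on the plus strand and Acat2 at chr17:12960748-12960947 on the minus strand. None of these stretches overlapped an annotated exon of another gene. Capitals mark CCAAT on either strand and, in Hmgcs1, the sterol element TCACNCCAC.
Hmgcs1: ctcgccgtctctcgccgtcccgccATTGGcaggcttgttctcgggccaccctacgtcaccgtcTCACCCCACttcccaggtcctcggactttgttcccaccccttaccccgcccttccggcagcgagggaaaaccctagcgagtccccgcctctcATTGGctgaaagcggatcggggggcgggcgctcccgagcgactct
Mvk: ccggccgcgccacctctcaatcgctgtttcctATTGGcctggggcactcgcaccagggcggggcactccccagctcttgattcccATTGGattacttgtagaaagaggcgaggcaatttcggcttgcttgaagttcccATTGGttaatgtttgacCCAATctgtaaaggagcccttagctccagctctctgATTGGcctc
Pmvk: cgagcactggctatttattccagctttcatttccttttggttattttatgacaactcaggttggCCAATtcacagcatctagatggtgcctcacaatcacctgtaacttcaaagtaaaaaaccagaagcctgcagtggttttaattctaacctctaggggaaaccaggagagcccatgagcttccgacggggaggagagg
Acat2: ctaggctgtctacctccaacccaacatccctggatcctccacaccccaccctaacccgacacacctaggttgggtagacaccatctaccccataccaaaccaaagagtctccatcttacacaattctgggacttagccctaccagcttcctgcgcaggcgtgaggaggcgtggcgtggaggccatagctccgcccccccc

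The Mvk stretch holds 5 CCAAT matches, the Pmvk stretch 1 and the Acat2 stretch none. Windows of 300 bases, from 250 before to 50 after the RefSeq start, were listed for 7 members, and Fdps and Fdft1 had none. For Pmvk, listed with more than 1 start, the outermost was used. CCAAT, on either strand, occurred in 6 of the 7 windows, all but that of Acat2, against 37.4% of 32851 windows of all genes. The GC box GGGCGG occurred in 5 of 7, against 35.7% of all windows. The sterol element TCACNCCAC was found in Hmgcs1 only of the 7, with its first base 137 bases before the start, against 1.24% of all windows. An LXR element, the direct repeat of AGGTCA with a gap of NNNN, was in 0 of 7 windows and in 0.0152% of all. No matches of different motifs overlapped. These matches describe letters within the windows and say nothing on whether a factor binds there.

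**Figure D1:**
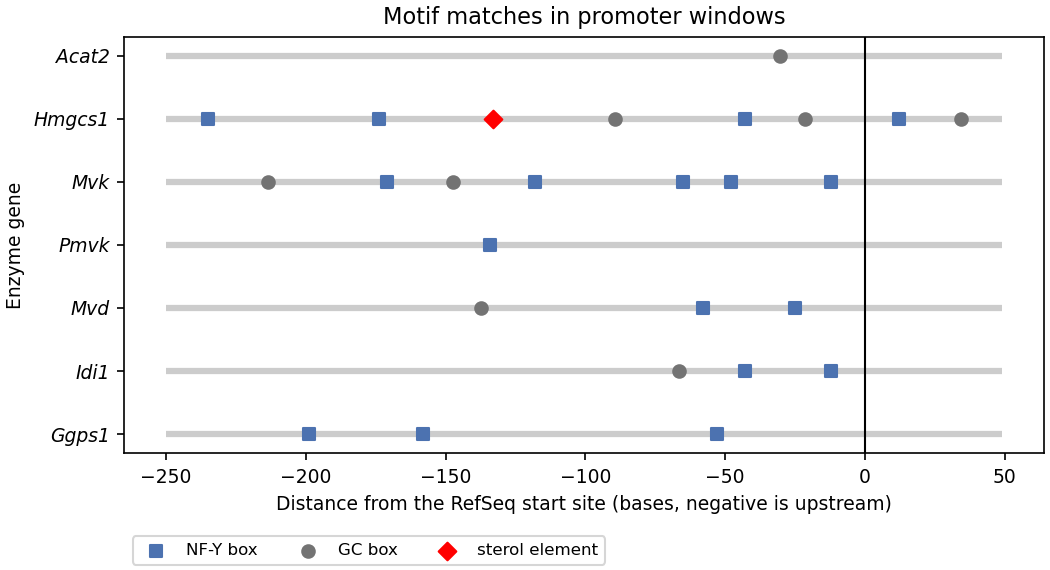
Positions of motif matches in the promoter windows of 7 enzyme genes, in pathway order. The x axis is the distance in bases from the RefSeq start, grey bars are the windows, squares are NF-Y boxes (CCAAT), circles GC boxes and the diamond the sterol element. Mvk has 5 NF-Y boxes upstream of its start, Acat2 has none, and only the Hmgcs1 window holds the sterol element.

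Levels are in FPKM, fragments per kilobase of gene scaled to library depth, so they may be compared between genes. All 9 members passed the limit for a measured row, a mean of at least 1 FPKM. They formed a high pair and a lower remainder in both libraries. Hmgcs1, the synthase, had 34.9 FPKM with DMSO and 44.2 FPKM with GW3965. Mvd, the decarboxylase, had 34.4 and 42.5 FPKM. Together these genes held 55.8% of the summed FPKM of the 9 in DMSO and 53.1% in GW3965.

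The remaining enzymes were between those and the kinases. Fdft1, squalene synthase, had 15.1 FPKM with DMSO and 16.9 FPKM with GW3965, and Acat2, the cytosolic thiolase, had 9.94 and 16.9 FPKM. Idi1, the isomerase, had 7.52 and 9.72 FPKM. Fdps, farnesyl diphosphate synthase, had 6.83 and 9.29 FPKM and Ggps1, geranylgeranyl diphosphate synthase, 6.19 and 9.86 FPKM. The kinases that act one after the other were lowest in DMSO, with Mvk at 4.60 FPKM and Pmvk at 4.67 FPKM. In GW3965 Mvk had 4.73 FPKM and Pmvk 9.15 FPKM. The highest member stood 7.59-fold above the lowest in DMSO and 9.35-fold in GW3965.

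The order of levels was nearly the same in both libraries. Hmgcs1, Mvd, Fdft1 and Acat2 were the top 4 and Pmvk and Mvk the last in each, with Fdft1 and Acat2 all but equal in GW3965. Idi1, Fdps and Ggps1 stood in that order in DMSO, while in GW3965 Ggps1 was above Idi1 and Fdps. In GW3965 these genes lay close together, at 9.86, 9.72 and 9.29 FPKM, and their order was not tested. The 9 summed to 124 FPKM with DMSO and 163 FPKM with GW3965, a ratio of 1.31.

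**Figure D2:**
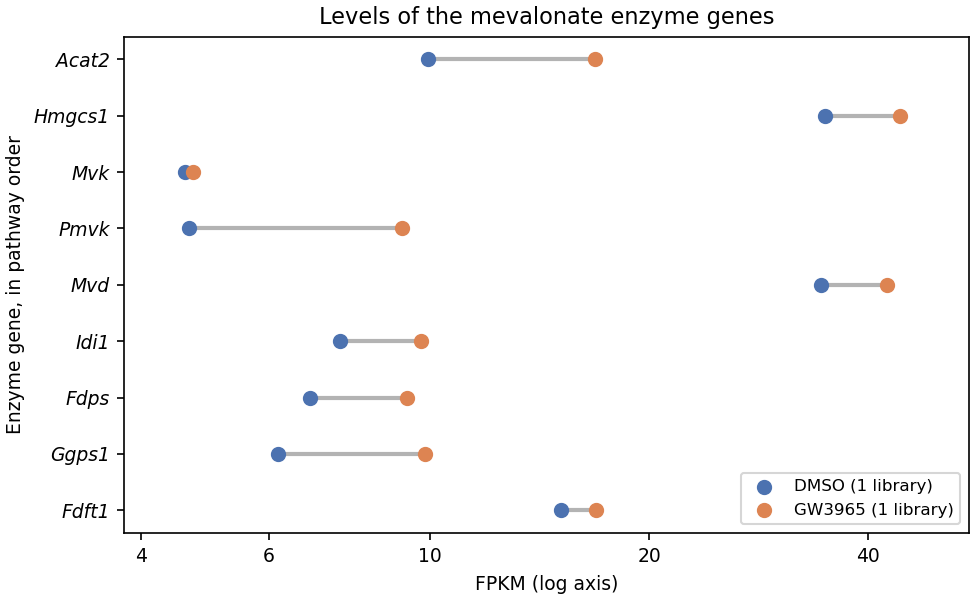
FPKM of the 9 enzyme genes in pathway order on a log axis, with 1 point for the DMSO library and 1 for the GW3965 library. Hmgcs1 and Mvd lie above 34 FPKM in both. The Mvk points, 4.60 and 4.73 FPKM, nearly coincide, while those of Pmvk lie at 4.67 and 9.15 FPKM.

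All 9 members had a higher FPKM in the GW3965 library, but so did most rows of the table: the median ratio of GW3965 to DMSO over 11889 measured rows was 1.25. The log2 of (GW3965 FPKM + 1)/(DMSO FPKM + 1), on which changes of low genes are understated, had a median of 0.24 over those rows. Values from which this median was subtracted are called centred, so that as many measured rows lie above 0 as below it. On the log2 scale 3 of 9 members, Pmvk, Acat2 and Ggps1, were higher by 1.5-fold or more and 0 were lower, beside 3.46% of all measured rows higher and 0.0757% lower. After centring 1 member, Pmvk, was higher and 0 were lower, against 1.38% and 0.336% of all rows. The members' median log2 ratio was 0.33, or 0.09 after centring, where the central 90% of all rows ran from -0.27 to 0.28. Among the 4717 rows whose mean FPKM lay within the members' own range of 4.66 to 39.6, 3.96% were higher and 0.0212% lower as deposited, 1.51% and 0.212% after centring, and the centred median was 0.03.

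The FPKM values of each member correspond to whole reads in both libraries at 1 gene length, which gave the fewest reads that fit, from 591 in DMSO for Ggps1 to 11869 for Hmgcs1. The true number may be a whole multiple of these. The intervals below are exact conditional 95% intervals on those reads and cover counting error only, not the spread between animals or cultures. For Ggps1, Idi1, Acat2 and Fdft1 a multiple gives a gene length nearer to the annotated exons, and the intervals on the fewest reads are then too wide.

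Pmvk, phosphomevalonate kinase, had the highest ratio, 1.96 (1.79 to 2.15), with a log2 ratio of 0.84 and a centred value of 0.60. Only 1.3% of measured rows had a higher log2 ratio. Its centred value was close to the limit of 0.58, and with both libraries scaled to the same upper quartile it was 0.57 and below it. Acat2 followed with a ratio of 1.70 (1.58 to 1.82), and its centred log2 ratio was 0.46, and 2.0% of rows were higher. Ggps1 had a ratio of 1.59 (1.43 to 1.78), a centred log2 ratio of 0.35 and 3.3% of rows above it. This interval spans 1.5, whereas the interval on 5 times the reads, the multiple nearest the annotated exon length, is 1.52 to 1.67 and does not. Which multiple applies was not tested.

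Fdps had a ratio of 1.36 (1.28 to 1.44), the lowest whose interval was wholly above the median ratio of all rows. Idi1, Hmgcs1 and Mvd could not be told from that median by counting error, with ratios of 1.29 (1.17 to 1.42), 1.27 (1.23 to 1.30) and 1.23 (1.19 to 1.28). The high pair and the isomerase thus differed between the libraries by about as much as the middle row of the table.

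Fdft1 and Mvk lay below the median of all rows, with intervals wholly under it. Fdft1 had a ratio of 1.12 (1.06 to 1.18), and 73.2% of measured rows had a higher log2 ratio. Its log2 ratio was 0.15 as deposited and -0.09 after centring, so that its sign depends on the scaling. Mvk, mevalonate kinase, had a ratio of 1.03 (0.947 to 1.12), the only interval that spans 1, and 90.8% of rows were above it. Its log2 ratio was 0.03 as deposited and -0.21 after centring, also with a sign set by the scaling. In the order of ratios, each member's interval overlapped that of the next, except between Mvd and Fdft1. At the multiples nearest the exon lengths, Pmvk and Acat2 were also apart, as were Ggps1 and Fdps.

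**Figure D3:**
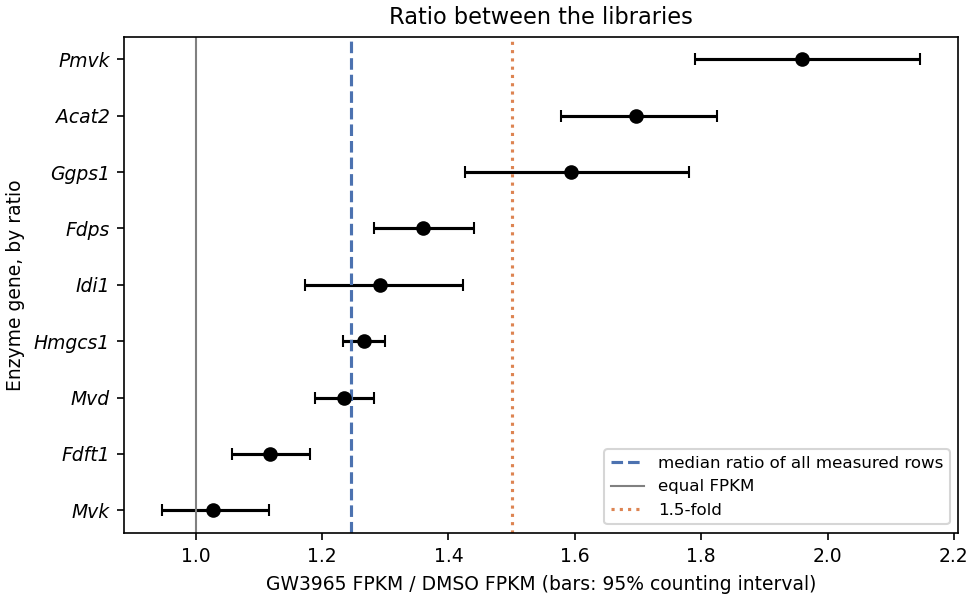
Ratio of GW3965 FPKM to DMSO FPKM for each enzyme gene, ordered by ratio, with 95% counting intervals from the fewest whole reads. The dashed line is the median ratio of all measured rows (1.25), the grey line marks equal FPKM and the dotted line 1.5-fold. Pmvk, Acat2, Ggps1 and Fdps lie above the dashed line with their whole interval, and Fdft1 and Mvk below it.

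The ratio of 2 members within a library does not depend on how the libraries are scaled. The neighbouring kinases were nearly level in DMSO, where Mvk stood at 0.985 of Pmvk, and apart in GW3965, where it stood at 0.517. Acat2 stood at 0.285 of Hmgcs1, the enzyme after it, in DMSO and at 0.382 in GW3965. At the branch point, Fdps stood at 1.10 of Ggps1 in DMSO and at 0.943 in GW3965, while Ggps1 stood at 0.409 of Fdft1, the enzyme of the sterol branch, in DMSO and at 0.583 in GW3965. Hmgcs1 and Mvd kept nearly the same proportion, 1.01 and 1.04. As shares of the summed FPKM of the 9 genes, Pmvk held 3.76% in DMSO and 5.61% in GW3965, Acat2 8.01% and 10.3%, Fdft1 12.2% and 10.4%, and Mvk 3.70% and 2.90%.

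Some of these rows share sequence or position with other genes on GRCm38. Fdft1, at chr14:63145150-63179578 on the minus strand, ends over the end of Ctsb, the lysosomal protease cathepsin B, on the plus strand. They share 774 exonic bases, and Ctsb had 2138 FPKM with DMSO and 2612 FPKM with GW3965, at a ratio of 1.22, far above the level of Fdft1. No source used here states that strand was kept, so reads of that stretch cannot be assigned to either gene, and how much of the Fdft1 level they make up was not tested. Acat2 shares 28.9% of its stretches of 100 bases, exactly matched among transcripts, with its paralogue Acat3, which had 0.420 and 0.737 FPKM. It also shares 7.21% with Tcp1, a chaperonin subunit gene, on the opposite strand. Tcp1 had 15.5 and 20.2 FPKM, above Acat2 in both libraries, and what its reads add to the Acat2 level was not tested. For Fdps the figure is 20.5%, with the overlapping gene Gm43738, a symbol with no row in the table. For Idi1 it is 15.8% with Gm13502, also without a row. No source used here says how reads that match several places were treated.

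Mvk and Ggps1 each start beside a gene on the other strand. The start of Mvk, at chr5:114444269-114460591, lies 209 bases from that of Mmab, which encodes an enzyme of vitamin B12 metabolism, so the Mvk stretch printed above lies between both starts. Mmab had 1.94 FPKM with DMSO and 2.13 FPKM with GW3965, a ratio of 1.10 and a centred log2 ratio of -0.15. It was thus, like Mvk, below the median of all rows. Ggps1, at chr13:14050659-14063488, and Arid4b, which encodes a chromatin protein, overlap at their starts by 257 bases. Arid4b had 2.17 and 3.02 FPKM, a ratio of 1.39 and a centred log2 ratio of 0.10, against 0.35 for Ggps1.

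Relatives of the members that act in mitochondria or in other tissues were low or near the median. Idi2, the second isomerase gene, had 0.024 FPKM with DMSO and 0.144 FPKM with GW3965. Such values lie near those of olfactory receptor rows, genes silent in most tissues, whose medians over 1083 rows were 0.026 and 0.069 FPKM. Acat1, the mitochondrial thiolase, had 2.47 and 2.98 FPKM, with a centred log2 ratio of -0.04, against 0.46 for Acat2. Acaa2, a thiolase of fatty acid oxidation, had 9.27 and 12.0 FPKM and a centred value of 0.10. Oxct1, which uses ketone bodies, had 75.6 and 89.2 FPKM and a centred value of -0.01.

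Enzymes that supply acetyl-CoA and NADPH to the pathway, and also to fatty acid synthesis, had a higher median than the mevalonate, sterol ring, isoprenoid using and SREBP control lists. Of 7 listed 6 were measured, at a median log2 ratio of 0.58 or 0.34 centred. As deposited 3 were higher by 1.5-fold, beside 3.46% of all measured rows, and after centring 0, beside 1.38%. On either scale 0 were lower, beside 0.0757% and 0.336%. Idh1, the cytosolic NADP-dependent isocitrate dehydrogenase, had 44.5 and 79.3 FPKM, with a centred log2 ratio of 0.58, just under the limit. Acss2, which makes acetyl-CoA from acetate, had 1.02 and 2.08 FPKM, and G6pdx, the entry enzyme of the pentose phosphate route, 42.2 and 64.4 FPKM. Acly, ATP citrate lyase, had 37.2 and 55.4 FPKM.

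Downstream of squalene, 1 of the 12 sterol ring enzymes was higher by 1.5-fold as deposited, beside 3.46% of all measured rows. After centring 0 were higher, beside 1.38%. On either scale 0 were lower, beside 0.0757% of all measured rows as deposited and 0.336% centred. The centred values ran from -0.23 to 0.35 with a median of 0.12, close to the 0.09 of the mevalonate enzymes. Above 0 were 11 of the 12, where centring puts as many of all measured rows above 0 as below. Lss, which closes the rings, had a centred log2 ratio of 0.35. Lbr, Sc5d and Cyp51, a reductase, a desaturase and a demethylase of sterols, had 0.26, 0.25 and 0.25.

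Enzymes that use the isoprenoid products were near the median of all rows. Of 22 listed 21 were measured, with a centred median of -0.01. On either scale 1 was higher by 1.5-fold and 0 were lower. Of all measured rows 3.46% were higher and 0.0757% lower as deposited, and 1.38% and 0.336% after centring. The 1 was Pcyox1, which breaks down the prenylcysteines left when prenylated proteins are degraded, with 17.8 FPKM with DMSO and 38.8 FPKM with GW3965, at a ratio of 2.18 and a centred log2 ratio of 0.84. Pggt1b, the subunit specific to geranylgeranyl transfer, which uses the product of Ggps1, had 3.99 and 5.58 FPKM and a centred value of 0.15. Nus1, of the enzyme that makes the dolichol precursor, and Chml, a Rab escort protein, had 0.17 and 0.14. Others of the list lay below 0, Dhdds among them at -0.16. The centred values ran from -0.21 to 0.84, and 10 of the 21 were above 0, close to the even split of all measured rows.

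Genes that control SREBP processing were all measured, 13 of 13, with a centred median of 0.11. Of these 1, Srebf1, was higher by 1.5-fold on either scale and 0 were lower. The shares of all measured rows were 3.46% higher and 0.0757% lower as deposited, and 1.38% higher and 0.336% lower after centring. Srebf1 had 8.74 and 33.0 FPKM, a ratio of 3.77. Srebf2, named after its values were seen, had 18.1 and 18.4 FPKM, a ratio of 1.02 and a centred log2 ratio of -0.22, next to that of Mvk. Insig1 and Insig2, which hold the SREBPs in the endoplasmic reticulum when sterols are ample, had centred values of 0.33 and 0.17. Mbtps2, a protease that releases the SREBPs, had 0.31. Scap and Mbtps1, of the same list, had -0.18 and -0.03. Above 0 were 9 of the 13, where all measured rows split evenly by the centring. The known LXR targets Abca1 and Abcg1, sterol exporters, had ratios of 13.1 and 3.37 in the same libraries.

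**Figure D4:**
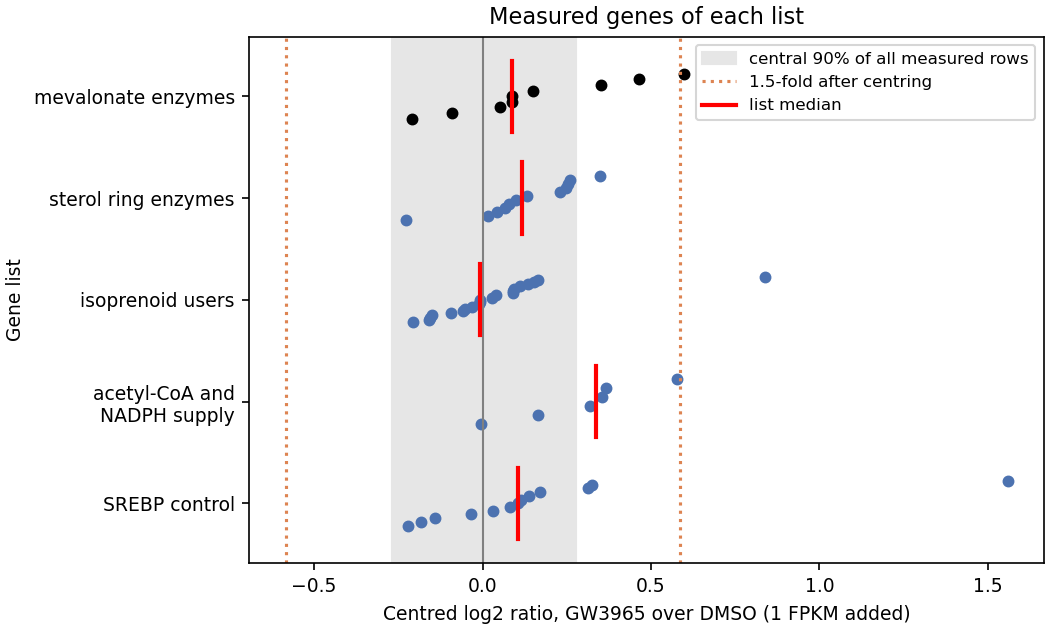
Centred log2 ratios of the measured genes of each list, with 1 FPKM added, 1 point per gene and a red bar at each list's median. The grey band is the central 90% of all measured rows and the dotted lines mark 1.5-fold after centring. Of the mevalonate enzymes, in black, Pmvk, Acat2 and Ggps1 lie to the right of the band, and the others lie within it.

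The labelled cell type was read against marker genes. The 8 general macrophage genes were all measured, with Lyz2 at 4052 and 4822 FPKM and Cd68 at 235 and 238 FPKM. The lowest was Fcgr1, at 1.08 and 2.01 FPKM. Their ratios differed, with Mertk at 6.79 and 13.9 FPKM, a ratio of 2.05, and Csf1r at 43.3 and 42.8 FPKM, a ratio of 0.989. The 5 markers of resident peritoneal macrophages were all below 1 FPKM, with Gata6 at 0.607 and 0.618. These markers thus do not mark the cells as resident peritoneal macrophages. The summed FPKM of other markers was 15.9 in DMSO and 24.0 in GW3965 for 7 mesothelial and fibroblast genes, 2.67 and 3.94 for 4 B cell genes, 3.57 and 4.0 for 4 neutrophil genes, 0.265 and 0.451 for 3 T cell genes, 0.809 and 0.911 for 4 hepatocyte genes and 0.342 and 0.367 for the 2 of 4 erythroid genes with a row. Beside the median ratio of 1.25 over all measured rows, these sums had ratios of 1.52 for mesothelial and fibroblast, 1.47 for B cell and 1.12 for neutrophil genes. The ratios were 1.70 for T cell, 1.13 for hepatocyte and 1.07 for erythroid genes. Of those last lists 0 genes were measured, so their ratios come from values near the floor and are not read as changes. Single genes weigh heavily: in DMSO S100a8 held 3.29 FPKM of the neutrophil sum and Dcn 6.91 FPKM of the mesothelial and fibroblast sum. The part of such cells in the values above was not tested. Fewer cells of a type and less RNA per cell cannot be told apart in such bulk libraries.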

How the data were processed

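The authors deposited 1 table of FPKM values with 1 column per library. STAR 2.3.0 and HTSeq 0.5.4p3 are named in the submitters' processing notes, as is GRCm38 (mm10), none with a stated role. No source used here states the annotation or the strand setting. The steps between FPKM values gave the depth: GENCODE M21 exon lengths less 99 bases gave a first value, refined on 4545 rows that point to 1 depth, to 101866062 reads for DMSO and 75287120 for GW3965. The first value was shared by 75 of 7599 rows with an exon length, and the next by 23. Whole reads came out in both libraries for 98.2% of measured rows. On simulated data 97.2% of 1000 genes were resolved, 99.6% of them correctly up to a whole multiple. The simulated gene lengths were the annotated exon lengths less 99 bases or close to that. Some lengths fitted here lie further off, as for Hmgcs1 at 3337 beside 4594 bases. The simulation therefore cannot tell whether the depths of these libraries are right.

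Rows with a mean of 1 FPKM or more were taken as measured. Higher or lower means past 1.5-fold on the scale with 1 FPKM added. Named genes are all members, the members of other lists past that limit or, to at most 4 a list, with the largest ratios, overlapping genes, genes that start within 5000 bases, and paralogues. A few genes named by it are left out here. Srebf2, Dhdds, Scap and Mbtps1 were added to it after their values were seen. The enzymes and lists were chosen with earlier results of these data known. Alternatives changed the pseudocount, the filter, the scaling and the limit. Calculations used Python 3.11.15, scipy 1.17.1, pandas 2.3.3 and numpy 2.4.6, and figures matplotlib 3.10.9.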

Additional observations from a re-analysis of the deposited data

How the results depend on the processing

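No paired analysis was possible because there is only 1 library of each kind. The count of 3 mevalonate enzymes higher by 1.5-fold became 1 when centred on all measured rows, 1 when centred on rows that are not NONCODE, 0 with the same upper quartile, 5 with the same sum of FPKM and 0 at 2-fold. It was 2 by the counting intervals on the fewest reads and 3 on the multiples nearest the exon lengths, chosen after seeing the data. The count of 0 lower did not move under any of these. Their median log2 ratio of 0.33 became 0.089, 0.099, 0.062 and 0.595 under those 4 scalings. Of 80 values of single enzymes 68 stayed on their side of the limit, 10 lost it, 2 gained it and 0 changed sign past it. This tally overstates stability, because changing the filter cannot move a single enzyme's ratio. Only Pmvk, Acat2 and Ggps1 were past the limit as deposited and could lose it. Acat2 and Ggps1 lost it under both centrings, with the same upper quartile and at 2-fold. Pmvk lost it with the same upper quartile and at 2-fold. Mvk and Fdft1, never past the limit, were below 0 in 3 settings each, the centred ones and the same upper quartile. Depth limits the intervals, which rest on at least 803 and 1163 reads for Pmvk and 591 and 696 for Ggps1.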

Other observations

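The deposited FPKM values kept enough decimals to give back whole reads. At the recovered depths, 11674 of 11889 measured rows gave whole reads in both libraries at a whole gene length where fewer than 0.01 chance matches were to be had, against 10.8% of rows when the DMSO depth was moved by 1%. The GW3965 depth was kept in that shift, and moving both depths together was not tested. For Pmvk the whole gene length was 1688 bases, with 803 reads in DMSO and 1163 in GW3965, beside an exon length of 1713 bases in GENCODE M21. For Mvk it was 2891 bases, with 1354 and 1029 reads, beside 2675. For Ggps1, Idi1, Acat2 and Fdft1 the smallest length that fits, 938, 1130, 1310 and 1843 bases, was far below the exon length, and a multiple of 5, 3, 2 and 2 lies nearer to it. Which multiple applies was not tested.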
